A study of Drosophila melanogaster with 2 samples.

Results

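The regions described here are 221 binding peaks of the transcription factor Rfx that reached the score limit of their peak list and yet are missing from the thresholded set taken from that list. The list ranks 108153 peaks and comes from chromatin immunoprecipitation sequencing (ChIP-seq, sequencing of the DNA recovered with an antibody) of Drosophila melanogaster embryos. Of its peaks on the 7 chromosome arms, 9468 had a score of at least 830 out of 1000, which stands for an irreproducible discovery rate (IDR) of 0.01. The thresholded set holds 9247 of these, and the 221 others, or 2.33% of the 9468, are the left-out peaks. That count is fixed by the rule that chose them, and nothing is read from it. The series has 1 group of 2 biological replicates, with no contrast: whole embryos aged 0 to 24 h, of both replicates alike, from a transgenic Rfx-GFP strain that makes an Rfx-eGFP fusion, precipitated with an anti-GFP antibody. The antibody field of the labels reads Rfx. A whole embryo mixes all of its tissues, so the cells in which a peak was bound are not known, and reads of a fusion protein stand for those of Rfx itself. All positions are on the dm6 build.

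Rfx is the fly member of the RFX family, whose proteins bind DNA through a winged helix at a palindromic site called the X-box. In flies Rfx is known as an activator of genes for the cilia of sensory neurons, among them those of intraflagellar transport. In peak calling, replicates are compared by the IDR, which is low for peaks that rank alike in both, and a thresholded set is what is left of a ranked list below a chosen IDR.

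No test was made. There is no second group, regions of 1 pool of chromatin are not replicates, and many of these regions are neighbours. Shares are given with 95% Wilson intervals, which cover counting error only and treat neighbouring peaks as separate. Read counts are not among the deposited values, and sequencing depth is therefore unknown. The control library was not analysed here.

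Sequences of 101 bases around the summit are shown for the strongest left-out peak of each of the 7 loci with the highest signal and for the peak at the Rfx gene, because they show what the strong left-out sites looked like. They are the plus strand of the reference, 5′ to 3′. The larp site lies in the second intron of the gene, upstream of an inner start site. Capitals mark GGCAAC or its reverse complement GTTGCC (1 arm of the X-box) TATAAA or its reverse complement TTTATA, and CTACCTG, the reverse complement of CAGGTAG.
ush intron, chr2L:481037-481137: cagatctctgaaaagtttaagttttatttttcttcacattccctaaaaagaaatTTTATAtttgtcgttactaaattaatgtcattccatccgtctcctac
Lk6 intron, chr3R:11760989-11761089: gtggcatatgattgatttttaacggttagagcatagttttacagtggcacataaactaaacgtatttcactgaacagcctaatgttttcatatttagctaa
larp promoter side, chr3R:28326545-28326645: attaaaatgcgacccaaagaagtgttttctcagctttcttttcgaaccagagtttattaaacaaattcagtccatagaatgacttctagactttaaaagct
trx intron, chr3R:14283813-14283913: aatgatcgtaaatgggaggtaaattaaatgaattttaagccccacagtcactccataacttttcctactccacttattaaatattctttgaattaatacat
CG18428 and eIF4EHP, chr3R:24109118-24109218: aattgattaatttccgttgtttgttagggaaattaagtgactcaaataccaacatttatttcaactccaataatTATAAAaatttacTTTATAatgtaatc
tara upstream, chr3R:16224462-16224562: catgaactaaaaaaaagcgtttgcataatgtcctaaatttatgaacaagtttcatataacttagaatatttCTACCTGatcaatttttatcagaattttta
CG6966 and CG42788, chr3R:15095845-15095945: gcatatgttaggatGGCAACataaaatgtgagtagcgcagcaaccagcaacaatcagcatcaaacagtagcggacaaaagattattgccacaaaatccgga
Rfx promoter side, chr3R:10378097-10378197: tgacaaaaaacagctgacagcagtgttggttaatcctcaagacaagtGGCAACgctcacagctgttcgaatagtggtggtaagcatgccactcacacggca
The first 6 of these sequences have 22.8% to 32.7% G and C and hold no GGCAAC in the 101 bases shown. The sequence between CG6966 and CG42788, at 42.6%, and that at Rfx, at 48.5%, each hold 1 arm and no second arm at X-box spacing. Around the summits of all left-out peaks, G and C content in 101 bases was lower where signal was higher. The signal is the authors' enrichment value, on a scale not stated. Replicate signals come from separate lists, and whether their scales match is not known. The median was 34.2% in the 28 left-out peaks with a signal of at least 500, 42.6% in the 134 between 100 and 500 and 47.5% in the 59 below 100. The thresholded peaks ran in the same order, at 31.7%, 36.6% and 43.6%.

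The peaks were chosen by their score and by a match on position and signal, so score and signal are given as a description. The highest score, 1000, was held by 194 left-out peaks (87.8%) and by 7867 thresholded peaks (85.1%). The signal of the left-out peaks ran from 6.17 to 4345 with a median of 152.8, and that of the thresholded peaks from 2.00 to 6099 with a median of 119.5. The median left-out peak thus stood at percentile 61.4 of the thresholded set. Of the 100 strongest passing peaks of all sequences, 4 were left-out peaks on the arms, and of the 1000 strongest 33.

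The score limit separated few of them. Only 4 left-out peaks had a score of 830, with a −log10 IDR between 1.9991 and 1.99989, just under the 2 that an IDR of 0.01 gives. They lay in Sik3, with a signal of 68.8, in Eip74EF, with 77.2, in CG34354, with 60.7, and at CG1792, with 52.1. No thresholded peak was below 2. The other 217 left-out peaks were at 2.03 or more, with scores of at least 841. Just outside the limit stood 10 peaks with a score of 829 and signals from 51.1 to 74.2.

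Signals below 30 were rare, and all 6 left-out peaks of that kind overlapped a stronger passing peak. The lowest was 6.17 at chic, the gene of the actin-binding protein profilin, beside an overlapping left-out peak of 194.4. Of the 267 thresholded peaks with a signal below 30, 260 (97.4%) overlapped a stronger passing peak, so this feature was shared by the sets. No left-out peak overlapped a thresholded peak by even 1 bp, and the nearest thresholded summit was between 534 and 200489 bp away, with a median of 5692 bp.

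The left-out peaks were unevenly spread over the chromosome arms. Arm 3R held 147 of them, 6.49% of its 2266 passing peaks (95% interval 5.54 to 7.58). Arm 2L held 48 of 1693, or 2.84% (2.15 to 3.74). The shares were 0.558% on 2R (10 of 1792), 0.508% on 3L (10 of 1968) and 0.344% on X (6 of 1744). None of the 4 passing peaks on chromosome 4 and of the 1 on Y was left out. Arm 3R thus held 66.5% of the left-out peaks and 23.9% of the passing peaks. Counted as 1 per locus, its share of the 81 loci was 65.4%.

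**Figure D1:**
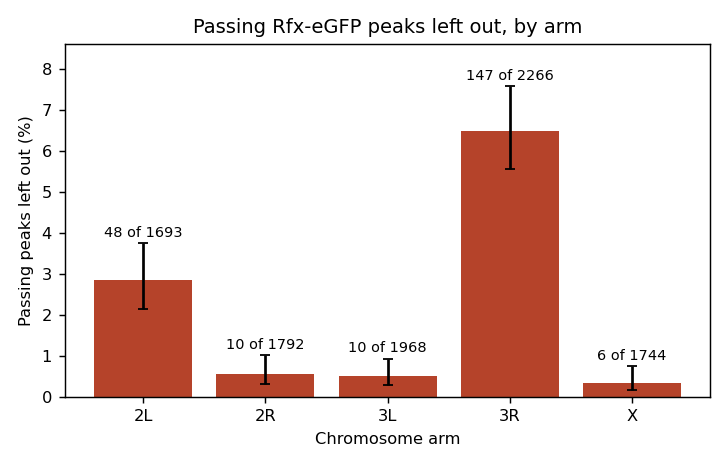
Percentage of passing peaks left out of the thresholded set on each of the 5 large chromosome arms; bars are shares, lines 95% Wilson intervals over peaks, and the numbers count left-out and passing peaks. Arm 3R stands at 6.49% and 2L at 2.84%, and the other 3 arms are at or below 0.558%.

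They also lay side by side. Joined where the gap was 10 kb or less, they formed 81 groups, of which 32 were a single peak and 49 held the remaining 189. Groups of 4 or more numbered 19 and held 121 peaks. In 47 of the 49 groups of several peaks, no thresholded peak lay between the members. Taken in order along the arms, 190 left-out peaks (86.0%) had another left-out peak as their next passing peak on at least 1 side, and the longest unbroken run was 12. The groups of several peaks spanned 0.593 to 31.1 kb, with a median of 3.84 kb.

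The largest group was at tara (taranis), which encodes a SERTA domain protein with roles in the cell cycle and chromatin. It held 17 peaks over chr3R:16224355-16255447. Of the 18 passing peaks in the tara gene and 500 bp on either side, 16 were left out and 2 were kept. Of the left-out summits, 14 lay in its first intron more than 500 bp from a TSS (transcription start site). The intron peak 5817 bp upstream of an inner start site had a signal of 988.7, with 621.6 in replicate 1 and 396.1 in replicate 2. The intergenic peak upstream of tara, 912 bp from the start of lncRNA:CR45643, had 1060, with 626.1 in replicate 1 and 429.1 in replicate 2. The peak 204 bp after the first start site had only 72.5, and the one 11 bp before the inner start site 123.5. The 2 strongest left-out peaks of this group were therefore more than 500 bp from a start site. Weaker ones lay away from start sites too, down to 61.2. Signals of the kept peaks are not given here.

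The second group, of 9 peaks, ran from Rel and Mst85C through Kdm2. Rel encodes Relish, an NF-kappaB factor of the immune response, and Kdm2 encodes a histone demethylase. All 7 passing peaks of Kdm2 were left out. Their signals were 96.2 and 287.3 near start sites and 101.5, 558.5, 55.4, 677.2 and 567.3 along the second intron. The 3 strong intron peaks were strong in each replicate, at 372.2, 354.5 and 349.1 in replicate 1 and 200.3, 332.2 and 239.8 in replicate 2. The 2 peaks beside Rel and Mst85C had 178.8 and 88.4.

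A further 3 groups had 8 peaks each. At jumu, a forkhead transcription factor gene, all 8 passing peaks were left out, and all lay in the first intron, with signals from 10.7 to 665.6. At COX7AL2, named for a subunit of cytochrome c oxidase, all 6 passing peaks of the gene were left out, at 8.05 to 207.2. The group around Rh5, the gene of a blue-sensitive rhodopsin of the eye, had no peak inside a gene, and its 8 intergenic signals ran from 75.9 to 534.6. Next in the count per gene came trx, with 5 of 9 passing peaks left out, crp, with 5 of 9, Bacc, with 5 of 6, and Tm1, with 5 of 9. Here trx encodes the histone methyltransferase Trithorax, crp (cropped) a basic helix-loop-helix factor and Tm1 a tropomyosin.

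**Figure D2:**
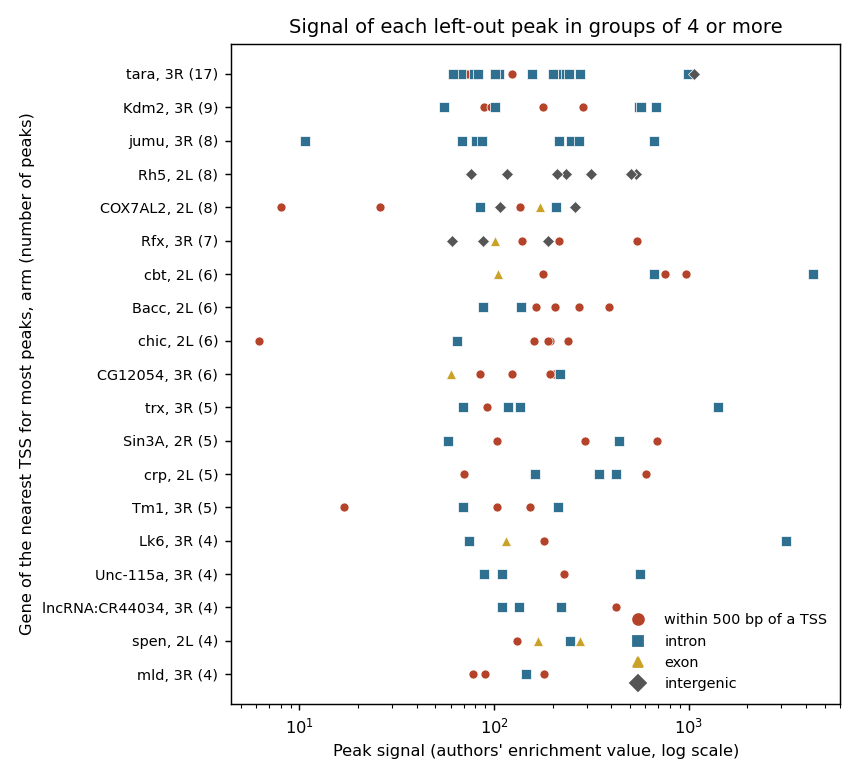
Signal of every left-out peak in the 19 groups of 4 or more (log axis, authors' enrichment value), with groups down the page named by the nearest start site of most peaks, the arm and the number of peaks; symbols give the location of the summit. Within a group signals spread widely, from 61.2 to 1060 at tara and from 105.2 to 4345 at ush and cbt.

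The strongest left-out peak was in an intron of ush, at chr2L:480889-481278, 1399 bp upstream of cbt. The ush gene encodes a zinc finger cofactor of GATA factors, and cbt (cabut) a zinc finger transcription factor. Its signal was 4345, with 2704 in replicate 1 and 1677 in replicate 2, above 99.9% of thresholded peaks in each. Of the 19 passing peaks in and beside ush, 4 were left out.

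Next was a peak in the first intron of Lk6, at chr3R:11760881-11761222, with a signal of 3177. Lk6 encodes a kinase of the cap-binding protein eIF4E. Its values were 1901 in replicate 1 and 1278 in replicate 2, and all 4 passing peaks of Lk6 were left out. In larp, the gene of a La-related RNA-binding protein, a peak lay in the second intron, 331 bp upstream of an inner start site. This peak, at chr3R:28326428-28326774, had 2118. Its values were 1172 in replicate 1 and 946.7 in replicate 2. A peak in the first intron of trx, at chr3R:14283720-14284043, had 1418, with 872.2 and 564.1 in the replicates. The peak 168 bp upstream of CG18428 and beside eIF4EHP, a cap-binding repressor of translation, at chr3R:24108922-24109401, had 1331, with 819.2 and 510.1. These 5 peaks were above 98.7% of the thresholded peaks in either replicate, so both replicates placed them near the top.

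The other strong loci were led by the peak upstream of tara described above. They then ran from 1027 between CG6966 and CG42788 to 677.2 in Kdm2, described above. Between them stood corto, a chromatin protein gene, with 816.4 at a site 918 bp upstream, and the shared promoter region of Sirt6 and pont with 765.4. Sirt6 is a deacetylase and pont (pontin) an ATPase of chromatin complexes. The isoQC locus followed with 708.4 and Sin3A, the gene of a corepressor, with 687.5. Among the 12 strongest loci the peak at corto differed most between the replicates. It stood at percentile 80.2 of the thresholded peaks in replicate 1 and 99.3 in replicate 2, with signals of 164.8 and 642.4. All 4 passing peaks of Sin3A were left out.

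The gene of the immunoprecipitated factor was itself among the sites. A group of 7 left-out peaks at chr3R:10378037-10388990 ran from the start of Rfx to that of cwo (clockwork orange). The cwo gene encodes a repressor that is part of the circadian clock. The peak 79 bp upstream of Rfx had a signal of 544.0, with 226.9 in replicate 1 and 302.5 in replicate 2. The 3 intergenic peaks behind it had 87.5, 190.0 and 60.4. The peak 33 bp after the start of cwo had 215.1, with 62.3 in replicate 1 and 146.3 in replicate 2. In the Rfx gene and its flanks 1 of 3 passing peaks was left out, and in cwo 2 of 4. The strain carries an Rfx-eGFP transgene. Whether it holds copies of this DNA was not examined, and its part in these signals was not tested.

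Part of the DNA between Rfx and cwo occurs in more than 1 copy in the reference. Of the 50-base words of the peak 3179 bp upstream of Rfx, 61.4% were found again, all between 3605 and 3611 bp away. For the peak at lncRNA:CR44938, with a signal of 139.4, it was 83.7%, all 3610 or 3611 bp away. For the cwo peak it was 32.9%, at 3610 bp. The peak at lncRNA:CR44938 had no value in replicate 1 and 128.1 in replicate 2. How the authors' mapping treated reads of such copies is not given in the sources used here.

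Over all left-out peaks, copied sequence was rare. At least 50% of the words were found elsewhere in 4 left-out peaks, or 1.81% (0.706 to 4.56), and in 8 thresholded peaks, or 0.0865%. The left-out share rests on 4 peaks, 2 of them at 1 locus. It was 1.02% without replicate 1 and 0.571%, or 1 peak, in the conservative lists, where no thresholded share was computed. The 4 were those near Rfx and at lncRNA:CR44938, one at Hsp70Ba (58.0%), a heat shock chaperone gene with near-identical neighbours, and an intergenic one on X (65.8%). The peak at Hsp70Ba had a signal of 89.0, with no value in replicate 1 and 86.7 in replicate 2. Whether it holds reads of those neighbours was not tested. Any copied word was found in 12 left-out peaks (5.43%) and in 70 thresholded peaks (0.757%), and the median was 0% in both sets. For the other 209 left-out peaks no 50-base word recurred. Annotated transposable elements touched 3 left-out peaks (1.36%) and 67 thresholded peaks (0.725%). Bases masked as repeats made up a median of 15.9% of a left-out peak and 16.6% of a thresholded peak.

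By location the intervals of the 2 sets overlapped in each category. At most 500 bp from a gene's start of transcription (TSS) lay 116 left-out summits, or 52.5% (45.9 to 59.0), against 50.4% (49.4 to 51.4) of thresholded summits. Introns held 74, or 33.5% (27.6 to 39.9), against 33.3%. Exons held 11, or 4.98% (2.80 to 8.69), against 4.29%, and 8 of the 11 were in untranslated parts. Intergenic DNA held 20, or 9.05% (5.93 to 13.6), against 11.97%. The median signal was 159.0 at start sites, 137.0 in introns, 114.6 in exons and 152.9 in intergenic DNA.

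**Figure D3:**
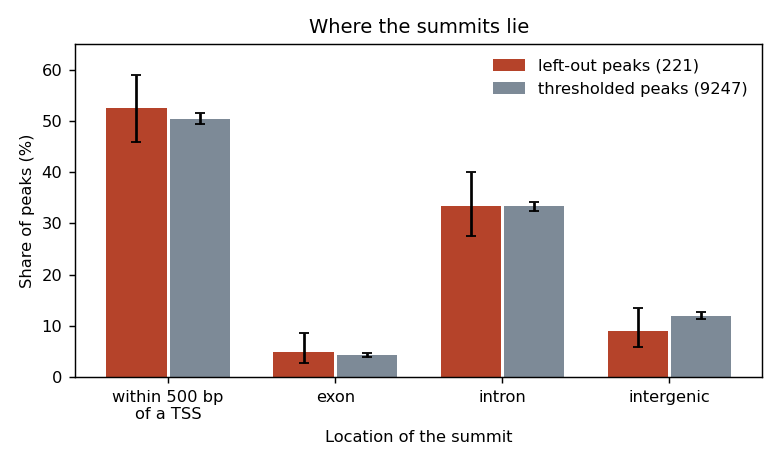
Share of summits within 500 bp of a TSS, in exons, in introns and in intergenic DNA, for 221 left-out peaks and 9247 thresholded peaks; lines are 95% Wilson intervals over peaks. Left-out and thresholded peaks stand at 52.5% and 50.4% near a TSS, and the intervals overlap in each of the 4 categories.

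Among intronic summits, 45 of the 74 left-out ones lay in a first intron, or 60.8% (49.4 to 71.1), against 1370 of 3080 thresholded ones, or 44.5% (42.7 to 46.2). This comparison was made after the left-out value had been seen, and tara supplied 14 and jumu 8 of the 45. Every intronic left-out summit of these 2 genes was in the first intron, so the higher share rests in large part on them. Of the left-out peaks near a start site, 31 of 116 (26.7%) were near the start sites of 2 or more genes, against 1592 of 4663 thresholded peaks (34.1%).

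In all, 146 genes held a left-out peak in their body or within 500 bp of it, 125 of them protein-coding. In 86 of the 146 every passing peak was left out, so the thresholded set shows no peak there. Many of the 86 had only 1 passing peak, and a peak was counted for each gene it lay in or near. They are therefore not 86 separate loci. Of the 60 genes with 2 or more left-out peaks, 30 had none kept. Besides those named, these included eIF4A, the translation initiation helicase, with 3 of 3 left out, and ATPsynC, a subunit of ATP synthase, with 3 of 3.

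The 5 cilium lists hold genes for building and running cilia, the process RFX factors are known for. None of their 52 genes found in the annotation held a left-out peak, and 30 of them held a thresholded one. Over all genes, 126 had a left-out summit within 500 bp of a start site and 5419 a thresholded one, a count without gene bodies. Left-out peaks were thus few at genes of any kind. A further 5 names (4 of intraflagellar transport and 1 of the ciliary GTPases) matched no gene and were not looked up. Per list, the genes with a thresholded peak were 12 of 18 for intraflagellar transport, 3 of 7 for the BBSome and ciliary GTPases and 6 of 11 for the transition zone and basal body. They were 6 of 10 for axonemal dynein and 3 of 6 for mechanosensory channels. The lists for neurons (4 genes), glia (3), muscle (3) and hemocytes (3) and the list of Hox and segmentation genes (23) also had none with a left-out peak, against 2, 1, 3, 1 and 9 with a thresholded one. Histone genes of the repeat cluster, ribosomal RNA genes and Stellate genes had no left-out peak and no thresholded one, and small nuclear RNA genes had none left out against 8 of 32 with a thresholded peak. Of 290 transfer RNA genes 1 had a left-out peak, tRNA:Glu-TTC-1-5, with a signal of 178.5, against 56 with a thresholded one. That peak also lies beside snoRNA:185. Of 269 small nucleolar RNA genes 3 had a left-out peak, against 30 with a thresholded one. The other 2 of the 3, snoRNA:Me28S-U2134a and snoRNA:Me28S-U2134b, lie inside RpL13A and were counted through a peak of RpL13A, so they are the same locus. RpL13A, the gene of a large ribosomal subunit protein, was the only 1 of 92 cytosolic ribosomal protein genes with a left-out peak, at 608.9 and 83.7, against 77 with a thresholded one. Of 19 heat shock genes Hsp70Ba had a left-out peak, and 10 had a thresholded one. In the Hox and segmentation list 1 name matched no gene, and in the Stellate list 1 name prefix. With 146 genes in all and many of the lists short, neither a count of 0 nor one of 1 to 3 sets a list apart.

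The replicates' own lists are made from the same libraries, so they describe the left-out peaks and do not check them independently. A signal was present for 200 left-out peaks (90.5%) in replicate 1 and for 215 (97.3%) in replicate 2, against 92.0% and 96.2% of thresholded peaks. The median signal of left-out peaks was 83.7 in replicate 1 and 79.6 in replicate 2, and that of thresholded peaks 70.1 and 60.5. A passing peak of the replicate was overlapped by 145 left-out peaks (65.6%) in replicate 1 and by 179 (81.0%) in replicate 2, against 64.98% and 67.9% of thresholded peaks. In both replicates it was 125 left-out peaks, in replicate 1 only 20, in replicate 2 only 54 and in neither 22. The strongest that replicate 2 alone held were near Ubc6, a ubiquitin-conjugating enzyme gene, with 342.5, and in spen, with 244.9. Across the 195 left-out peaks with a signal in both, the rank correlation of the 2 values was 0.70, as a description of points that share libraries and loci.

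**Figure D4:**
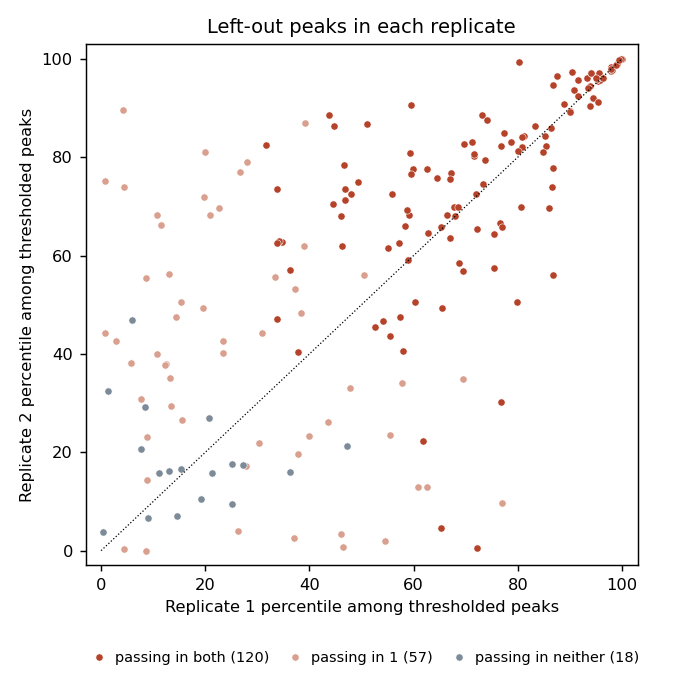
Percentile of each of 195 left-out peaks among the thresholded peaks, by signal in replicate 1 (x axis) and in replicate 2 (y axis); colours show whether a passing peak of both replicates, of 1 or of neither overlaps it, and the dotted line marks equal percentiles. Peaks passing in both fill the upper right. The median percentile is 57.9 over the 200 left-out peaks with a signal in replicate 1 and 65.9 over the 215 in replicate 2.

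Most of the same peaks were missing from the thresholded set of each other pair of lists. In the conservative lists 167 passing peaks overlapped a left-out peak, and 166 of them were left out there too. In replicate 1 it was 141 of 142, and in replicate 2 it was 178 of 180. Against the 217 left-out peaks with a −log10 IDR of at least 2 it was 166 of 166, 141 of 141 and 178 of 179, and the 1 kept peak was at omd, at chr3R:13682968-13683291, with a signal of 63.9 in that list. The subset of 217 was formed after the values had been seen. Per the deposited descriptions the thresholded sets have 1 further input, of a kind not stated, that the ranked lists do not. Its part in which peaks are missing was not tested.

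The strict X-box was found at none of the left-out summits. It was searched within 100 bp on both strands, as 2 arms with up to 3 bases between them, and 0 of 221 allows a share of up to 1.36% by 3 counts, or 1.71% as the upper Wilson limit. Of thresholded summits 70 (0.757%, 0.600 to 0.955) held one. Of the 97295 ranked summits below the score limit it was 576 (0.592%, 0.546 to 0.642), so the X-box was rare in all 3 sets. The thresholded share would give 1.67 among 221, so a difference was not detectable with this number of peaks. A single arm, GGCAAC, was found at 39 left-out summits, or 17.6% (13.2 to 23.2), against 13.2% (12.5 to 13.9) of thresholded summits and 13.97% of ranked summits below the score limit. The peaks at Rfx and between CG6966 and CG42788 shown above are among the 39. So is the trx peak with a signal of 1418, whose arm lies outside the 101 bases shown.

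Of the other motifs, GAGAGAG, which GAGA factor binds, had the widest gap relative to its share. It was found at 22 left-out summits, or 9.95% (6.67 to 14.6), against 4.82% (4.40 to 5.28) of thresholded summits and 2.74% of those below the limit. The 22 include the peaks in Lk6, Kdm2, cwo and tara with signals of 3177, 567.3, 215.1 and 83.0. It was singled out of 10 motifs after the values were seen. TATAAA was found at 22.6% of left-out and 28.0% of thresholded summits, CGATA, which BEAF-32 binds, at 29.4% and 31.0%, and TATCGATA, which DREF binds, at 3.17% and 4.82%. CGATA lies within TATCGATA. The E-box CACGTG stood at 3.17% and 2.28%, CAGGTAG, which Zelda binds, at 1.81% and 1.04%, and the core promoter element Motif 1 at 1.36% and 1.71%. A match says only that these letters are in the window.

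**Figure D5:**
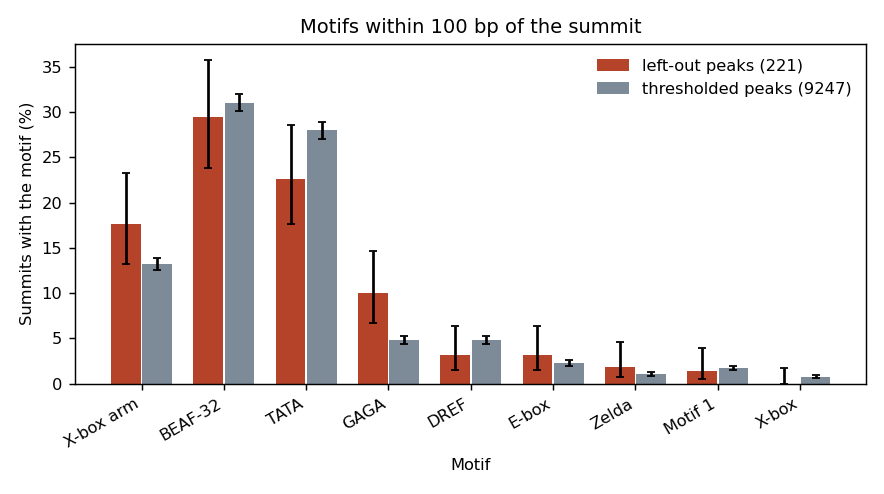
Share of summits with each motif within 100 bp, for 221 left-out peaks and 9247 thresholded peaks; lines are 95% Wilson intervals over peaks. GAGA is at 9.95% of left-out and 4.82% of thresholded summits, and the X-box at 0% and 0.757%.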

How the data were processed

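The authors deposited peak lists of 2 replicates, each alone and both together, on dm6 per the labels. Neither aligner nor peak caller is named in the sources. Per the file headers and labels, column 5 is the authors' score, the IDR scaled up to 1000. The deposited signal value is the caller's enrichment, and the deposited −log10 IDR is a further column. A further 16 columns of per-input values were not used.

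Left-out peaks were rows with a score of 830 or more on the 7 chromosome arms that had no identical row (position, signal, summit) in the thresholded set. Genes came from Ensembl release 115 (BDGP 6.54), without transposable elements, and sequence from the RefSeq dm6 genome. Each summit took the first category that applied: a TSS at most 500 bp away, then exon, then intron, otherwise intergenic. Replicate signals were those of the strongest peak of a replicate's list that held the summit. Words of 50 bases and 10 motifs were matched exactly on both strands. Scripts were tested on simulated data. The software was matplotlib 3.10.9, scipy 1.17.1, pandas 2.3.3, numpy 2.4.6 and Python 3.11.15.

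The left-out peaks and the 19 gene lists were chosen with earlier results of these data known. The motif letters, the first-intron comparison and some named genes were chosen after the files were seen. Named were the 12 strongest peaks, 1 per group, the 3 largest groups and ties, the 5 genes with the most peaks and ties, up to 3 genes per list, peaks at the score limit and peaks that only 1 replicate held. Genes with all peaks left out, the Rfx group and copied sequences were named after their values were seen. Alternatives were other score, window, gap, word and overlap settings, the conservative lists and each replicate alone.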

Additional observations from a re-analysis of the deposited data

How the results depend on the processing

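The number of left-out peaks ran from 162 without replicate 2 to 196 without replicate 1, and was 175 in the conservative lists and 194 at a score of 1000. The share within 500 bp of a TSS was 50% without replicate 2 and 50.2% with protein-coding genes only, both below the 50.4% of thresholded peaks under the main setting, and 55.6% without replicate 1; thresholded shares were not recomputed under the alternatives. It moved to 64.7% with a window of 1000 bp and to 66.7% with the strongest peak of each 10 kb group. A gap of 1 kb gave 135 groups in place of 81. The groups numbered 73 and 77 with 1 replicate left out. The share of left-out peaks that overlapped a thresholded peak of replicate 1 was 0.452%, and 0% with a −log10 IDR of at least 2. The share with 50% or more copied words moved from 1.81% to 0.467% with words of 100 bases and to 0.571% in the conservative lists, and it ran from 1.02% to 2.47% with 1 replicate left out, so it rests on 1 to 4 peaks. The share on 3R was 59.3% without replicate 2 and 64.8% without replicate 1. The share with GAGAGAG was 6.79% without replicate 2, 13.3% without replicate 1, 10.9% in the conservative lists and 13.6% with 1 peak per group. The X-box share was 0% under each alternative run. The causes were not tested. No paired analysis was possible because there is only 1 group. Depth is unknown.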

Other observations

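A further 6 passing peaks left out of the thresholded set lay off the chromosome arms and are not described above. In the other pairs of lists, left-out peaks that overlapped none of those described numbered 9 of 175 in the conservative lists, 21 of 162 in replicate 1 and 18 of 196 in replicate 2. Of these, 5, 10 and 14 lay within 10 kb of a group described above. Arm 3R held 64.6%, 59.3% and 64.8% of the left-out peaks of these lists, against 23.7%, 23.4% and 24.2% of their passing peaks.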
